A study of Mus musculus with 2 samples.

Results

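The genes described here encode the proteins of the cytosolic ribosome, together with their close paralogs, in adult mouse testis. They were chosen by name, as the protein-coding genes whose symbol begins with Rpl, Rps or Rplp and a digit. Ribosomal S6 kinases, a binding protein, the ubiquitin fusion gene Rps27a and genes named as pseudogenes were left out. The rule found 83 genes among 21474 protein-coding genes in the tables. Of these, 52 belong to the large subunit and 31 to the small subunit. By name, 8 are paralogs of another member, which leaves 75 standard subunit genes.

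The ribosome translates mRNA with a small subunit that decodes the message and a large subunit that forms the peptide bond, and nearly every ribosomal protein is present in it as a single copy. Most mammalian ribosomal protein genes have left many processed pseudogenes, which are reverse-transcribed copies without introns. Several ribosomal protein genes lie on the X chromosome, which is transcriptionally silenced in spermatocytes during meiosis, and autosomal paralogs such as Rpl10l and Rpl39l are known for expression in testis germ cells.

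The testes came from male C57BL/6J littermates at 8 weeks of age, with no treatment, transgene or mutation named. RNA above 200 nucleotides that was depleted of ribosomal RNA and selected for poly(A) was sequenced as stranded read pairs of 76 nucleotides in 2 libraries, called replicates 1 and 2. The labels call the libraries biological replicates, yet both carry 1 donor identifier, so whether they are separate animals is not settled. Every SD below (n = 2) measures only the spread between these libraries, which may not be a spread between animals. There was 1 group, so no comparison between groups was possible.

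Expected counts, which are estimated read counts per gene, summed to 50374324 in replicate 1 and 52788929 in replicate 2. Defining germ cell genes marked the tissue as testis: all 5 spermatocyte markers were detected, and all 6 spermatid markers, the spermatid markers at a summed level of 64691 TPM in replicate 1 and 60887 TPM in replicate 2. TPM is transcripts per 1000000, a level corrected for length. Sertoli (6 of 6) and Leydig (5 of 5) markers were detected as well. The libraries differed most in 2 of the marker lists: the 5 peritubular smooth muscle markers summed to 296 TPM in replicate 1 and 139.97 TPM in replicate 2, and the 7 epididymis markers to 753 and 3.68 TPM. In whole tissue, fewer cells of a type and less RNA per cell cannot be told apart.

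Ribosomal protein mRNAs were among the abundant transcripts of testis but spread over a wide range of levels. In both libraries, 82 of the 83 genes reached a TPM of 1, the threshold for a detected gene, against 62.1% of all protein-coding genes. A level of 100 TPM was reached in both by 64 members, against 7.38% of all protein-coding genes. The median member had 238 TPM in replicate 1 and 211 TPM in replicate 2, a mean of 225 ± 18.4 (SD, n = 2), while the median of all protein-coding genes was 3.54 ± 0.0283 TPM. Together the members held 3.33% of TPM in replicate 1 and 2.89% in replicate 2. As a share of the expected counts of all 43346 Ensembl genes, which are not corrected for length, they held 1.20% (95% Wilson interval 1.199 to 1.205) and 1.02% (1.015 to 1.02). These intervals cover counting error only.

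The 10 highest members held 40.1% of the members' summed TPM in replicate 1 and 41.5% in replicate 2. Rplp1, an acidic protein of the stalk that recruits elongation factors, was highest, with 2063 TPM in replicate 1 and 1581 TPM in replicate 2. Its partner Rplp2 had 277 and 198 TPM, and Rplp0, the base of the stalk, had 1272 and 1299 TPM. The 3 stalk genes thus lay at different levels, although their proteins stand together on the ribosome. Rpl36 followed with 1697 and 1450 TPM in replicates 1 and 2. Rpl41, which encodes the smallest ribosomal protein, had 1739 and 1307 TPM. Among small subunit genes Rps12 was highest, with 1638 and 1239 TPM. Rps24, Rps15a, Rps29, Rpl13a and Rpl34 completed the first 10, at means between 885 and 1130 TPM. In Rps15a, a short transcript of 250 bases held 93.2% of the gene's TPM, while one of 640 bases had a mean of 35.5 TPM. In Rpl13a, a transcript of 338 bases held 82.9%. As TPM is divided by length, the ranks of Rps15a and Rpl13a depend on the reads assigned to these short forms.

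The 10 lowest members were Rpl3l, Rpl7l1, Rpl39, Rpl5, Rpl36a, Rpl27, Rps4x, Rpl22l1, Rpl14 and Rpl22. They include 3 paralogs and 3 of the 4 X-linked members. Their means ran from 0.700 ± 0.735 TPM for Rpl3l, a paralog known for expression in heart and skeletal muscle, to 42.7 ± 0.516 TPM for Rpl22. Rpl3l had 39 counts in replicate 1 and 9 in replicate 2, and was the member with under 1 TPM in a library. Rpl5, which carries 5S ribosomal RNA into the large subunit, had 18.4 TPM in replicate 1 and 17.9 TPM in replicate 2. Rpl27 had 27.9 and 23.4 TPM, and Rpl14 had 42.7 and 31.6 TPM. Rpl5, Rpl27 and Rpl14 are standard single-copy parts of the large subunit, and all 3 have well-expressed sequence copies that are described further on.

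**Figure D1:**
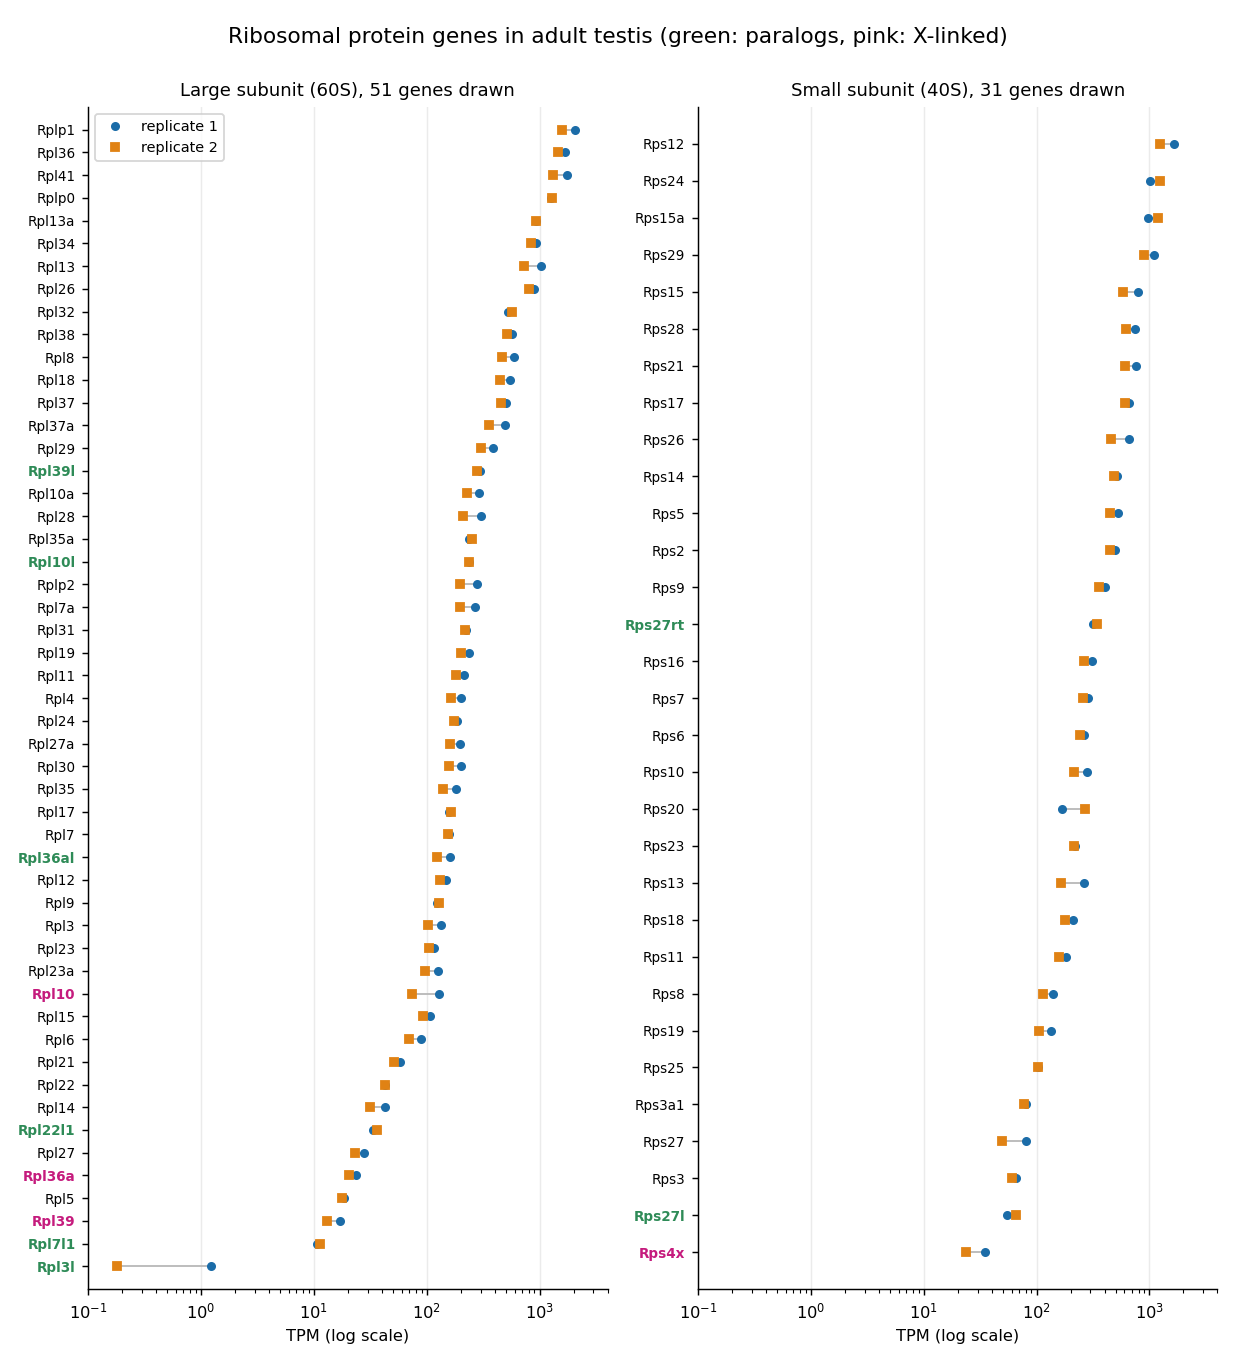
TPM of 82 of the 83 ribosomal protein genes on a log axis, with 51 of the 52 large subunit genes on the left and 31 small subunit genes on the right. Circles are replicate 1, squares replicate 2 and grey lines join them. Most genes lie above 100 TPM, the paralogs Rpl39l, Rpl10l, Rps27rt and Rpl36al lie among them, and the X-linked genes Rpl39, Rpl36a and Rps4x lie near the bottom.

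The order of the members was alike in both libraries: across the 83 genes, log2(TPM + 1) in the libraries had a Spearman rho of 0.985 (Pearson r 0.991). These values describe genes, which are not independent replicates. Large subunit genes had a median of 193 ± 21.3 TPM and small subunit genes 276 ± 15.9 TPM, a log2 ratio of medians of -0.52. Both libraries had the lower median in the large subunit. Across members, mean TPM had a Spearman rho of -0.47 with the effective length by which TPM is divided, and of 0.48 with the GC content of the coding sequence. Each gene contributes 1 point, and all share the same 2 libraries.

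The 4 X-linked members all lay below the median of the autosomal members. Rpl10, a protein of the large subunit that joins late in its assembly, had 128 TPM in replicate 1 and 74.2 TPM in replicate 2. Rps4x had 35.2 and 23.6 TPM, and Rpl36a had 23.4 and 20.7 TPM. Rpl39, a short protein that lines the tunnel through which the new peptide leaves, had 16.9 and 13.1 TPM. The median of the 4 was 25.7 ± 5.12 TPM, against 244 ± 35.2 TPM for the 71 autosomal subunit genes that are not paralogs. X-linked genes as a whole were lower too: detected X-linked protein-coding genes had a median of 5.40 ± 0.788 TPM (496 genes), against 13.4 ± 0.248 TPM for detected autosomal ones (12795 genes). With 4 genes this is a description.

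Each of the 8 paralogs was set beside its parent in the same library, as a log2 ratio of TPM. Of the 3 autosomal paralogs whose parent is X-linked, all exceeded the parent in both libraries. Their summed TPM was 4.14 times that of the 3 parents in replicate 1 and 5.97 times in replicate 2.

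Rpl10l, which is required for male meiosis in mice, is a gene of 1 exon on chromosome 12 (66283379 to 66284401, minus strand, GRCm38, the assembly also called mm10). Its parent Rpl10 has 7 exons and lies at 74270812 to 74273135 on chromosome X. Rpl10l had 238 TPM in replicate 1 and 239 TPM in replicate 2, and Rpl10 had 128 and 74.2 TPM. The paralog was therefore steady between libraries and the parent was not. Rpl10l was 1.87 times Rpl10 in replicate 1 and 3.22 times in replicate 2, a mean log2 ratio of 1.29 ± 0.557 (SD, n = 2). The counting intervals of the log2 ratio, 0.84 to 0.96 and 1.61 to 1.76, did not overlap, so the ratio differed between libraries by more than counting error. Both coding sequences have 645 bases, and the ratio of expected counts without a length correction was 1.91 on the log2 scale.

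Rpl39l lies on chromosome 16 (10170226 to 10174911, plus strand), and its parent Rpl39 at 37082520 to 37085402 on chromosome X. Rpl39l had 295 TPM in replicate 1 and 281 TPM in replicate 2, and Rpl39 had 16.9 and 13.1 TPM. This was the highest ratio of the 8 pairs: 17.4 times the parent in replicate 1 and 21.5 times in replicate 2, or 4.27 ± 0.214 on the log2 scale. The intervals of the ratio overlapped between libraries, at 3.95 to 4.30 and 4.23 to 4.62. Rpl39l rested on 6780 and 6602 counts and Rpl39 on 279.9 and 222.6.

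The coding sequences show how far these paralogs can be told apart by reads of 76 nucleotides. They are given from the GENCODE M21 transcripts, 5′ to 3′, and capitals mark every base that differs between the paralog and its parent. The first 240 bases of Rpl10l and Rpl10, read from the start codon, differ at 41 positions. Rpl39l and Rpl39 are shown whole, at 156 bases with 23 differences.
Rpl10l: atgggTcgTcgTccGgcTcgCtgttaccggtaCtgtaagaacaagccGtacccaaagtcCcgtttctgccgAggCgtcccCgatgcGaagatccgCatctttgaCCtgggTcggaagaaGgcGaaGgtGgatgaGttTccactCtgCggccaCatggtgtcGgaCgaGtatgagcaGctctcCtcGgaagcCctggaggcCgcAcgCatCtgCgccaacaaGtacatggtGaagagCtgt
Rpl10: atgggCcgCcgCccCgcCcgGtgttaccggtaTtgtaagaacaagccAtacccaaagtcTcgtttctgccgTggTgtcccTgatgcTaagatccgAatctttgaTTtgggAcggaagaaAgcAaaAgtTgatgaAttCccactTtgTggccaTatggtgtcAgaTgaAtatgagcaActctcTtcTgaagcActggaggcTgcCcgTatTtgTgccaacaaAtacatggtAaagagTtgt
Rpl39l: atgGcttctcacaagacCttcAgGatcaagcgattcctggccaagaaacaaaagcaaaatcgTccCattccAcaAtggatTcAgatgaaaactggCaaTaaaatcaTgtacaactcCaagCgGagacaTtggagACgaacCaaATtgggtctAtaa
Rpl39: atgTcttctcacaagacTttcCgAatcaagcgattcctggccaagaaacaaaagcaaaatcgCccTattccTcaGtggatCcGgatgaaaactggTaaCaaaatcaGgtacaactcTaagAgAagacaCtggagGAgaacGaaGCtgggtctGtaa
Differences were scattered along both pairs. The longest run of identical bases was 23 for Rpl10l and Rpl10 and 38 for Rpl39l and Rpl39, both shorter than a read. Over the whole coding sequence, Rpl10l was 84.8% identical to Rpl10 in bases while its protein differed at 3 of 214 residues. Rpl39l was 85.3% identical to Rpl39, with 3 of 51 residues different. The posterior SD of the count, which the authors' tables give as the uncertainty in assigning reads to a gene, was 0 for Rpl10l in both libraries and at most 0.03 reads for Rpl39l. It was larger for the parents, at 0.916% and 1.27% of the count for Rpl10 and 0.824% and 3.25% for Rpl39, which are the denominators of the ratios.

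Rpl36al, on chromosome 12 (69182731 to 69184083, minus strand), encodes the same 106 residues as its X-linked parent Rpl36a, with 87.9% identity in bases. It had 163 TPM in replicate 1 and 124 TPM in replicate 2, and Rpl36a had 23.4 and 20.7 TPM. The ratio was 6.93 in replicate 1 and 6.02 in replicate 2, or 2.69 ± 0.144 on the log2 scale. Both genes encode the same protein, and the mRNA of the paralog had the higher level per length. The fourth X-linked member, Rps4x, has an autosomal relative, Rps4l, which GENCODE M21 types as a transcribed processed pseudogene and which is therefore not among the 83 genes. Rps4l, on chromosome 6 (148354656 to 148355598), had 261 TPM in replicate 1 and 202 TPM in replicate 2, and Rps4x had 35.2 and 23.6 TPM, a log2 ratio of 2.99 ± 0.150.

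The small subunit gene Rps27 has 2 paralogs on chromosome 9. Rps27rt, a gene of 1 exon at 114982366 to 114982739, has a coding sequence identical to that of Rps27 over all 255 bases. That shared sequence is shown once, with no base in capitals because none differs.
Rps27rt: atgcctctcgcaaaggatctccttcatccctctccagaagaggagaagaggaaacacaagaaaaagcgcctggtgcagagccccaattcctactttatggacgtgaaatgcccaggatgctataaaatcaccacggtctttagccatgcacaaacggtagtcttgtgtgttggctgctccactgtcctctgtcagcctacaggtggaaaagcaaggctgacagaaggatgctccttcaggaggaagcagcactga
Reads inside it match both genes equally, and only bases outside the coding sequence can separate them. Rps27rt had 318 TPM in replicate 1 and 345 TPM in replicate 2, and Rps27 had 79.8 and 49.1 TPM, a log2 ratio of 2.40 ± 0.581. The length listed for Rps27 is 255 bases, which is its coding sequence alone, and its effective length was 53.6 and 48.6 bases. Its TPM therefore rested on 173 and 100.4 counts, against 2159 and 2374 for Rps27rt, and the ratio of counts per base of coding sequence was 4.10 on the log2 scale. No listed base of Rps27 lies outside the coding sequence, while the Rps27rt transcript is listed at 370 bases. Read pairs that reached beyond the coding sequence could thus be assigned to Rps27rt but not to Rps27. How far this raised the ratios was not tested. The posterior SD of the Rps27 count was 4.10% of it in replicate 1 and 5.30% in replicate 2, so its level and both ratios to it are uncertain.

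Rps27l, at 66946086 to 66949516 on chromosome 9, is 76.1% identical to Rps27 in bases, and its mRNA is known to respond to p53. It had 54.2 TPM in replicate 1 and 65.6 TPM in replicate 2. The ratio to Rps27 changed sides between libraries, with log2 values of -0.56 and 0.42, and was 2.48 on counts per coding base. No direction can be given for this pair.

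The other 3 paralogs were below their parents in both libraries. Rpl22l1, which shares 70.3% of residues with Rpl22, had 33.4 TPM in replicate 1 and 36.1 TPM in replicate 2, and Rpl22 had 42.4 and 43.1 TPM, a log2 ratio of -0.30 ± 0.0607. Rpl7l1, a distant relative with 40.7% of residues shared, had 10.8 and 11.3 TPM, and Rpl7 had 158 and 153 TPM, a log2 ratio of -3.82 ± 0.0802. The listed length of Rpl7l1 is 2606 bases, and its ratio in counts per base of coding sequence was -1.81. Rpl3l, described above, had 1.22 and 0.18 TPM, and Rpl3, which lies near the peptide-forming centre, had 133 and 102 TPM, a log2 ratio of -7.96 ± 1.68.

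**Figure D2:**
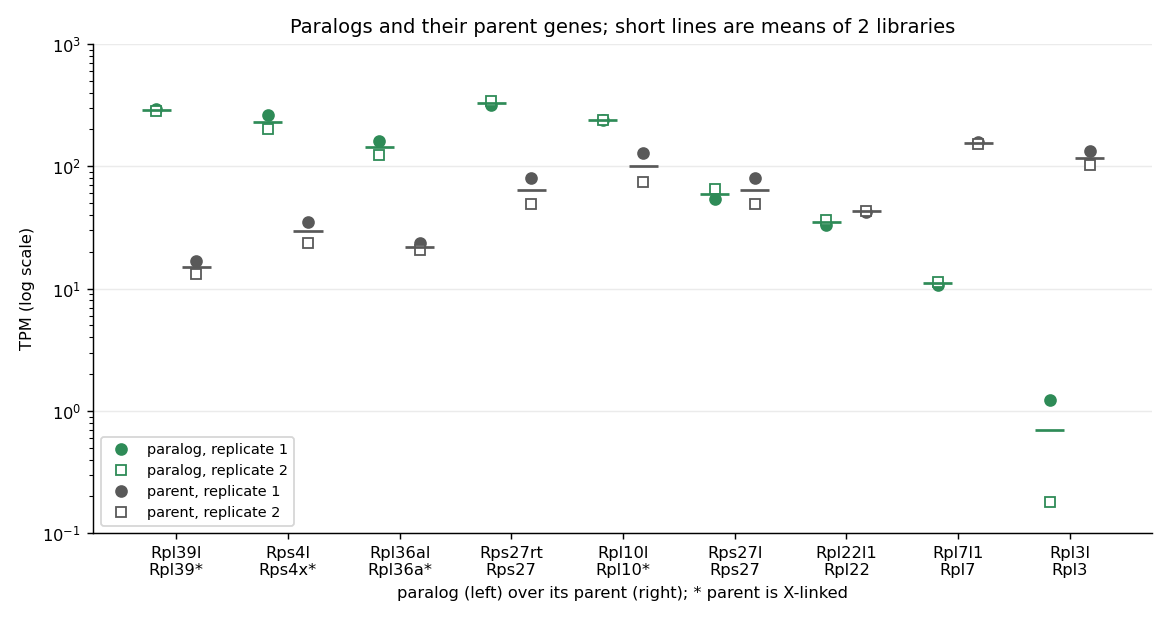
TPM on a log axis of each paralog (green, left) and its parent (grey, right), ordered by their ratio. Filled circles are replicate 1, open squares replicate 2 and short lines the means; an asterisk marks an X-linked parent. Rpl39l, Rps4l, Rpl36al, Rps27rt and Rpl10l lie above their parents in both libraries, Rps27l overlaps Rps27, and Rpl22l1, Rpl7l1 and Rpl3l lie below. The level of Rps27 is uncertain, as its listed transcript is the coding sequence it shares with Rps27rt.

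A search of the 126465 GENCODE M21 transcripts of measured genes found 399 further genes that hold a copy of a member's coding sequence. A copy had 95% identity or more over at least 90% of the length of that sequence. This search was added after the levels had been seen. Copies were found for 71 of the 83 members, and 373 of the 399 are typed as processed pseudogenes and 14 as transcribed processed pseudogenes. Most copies had little signal: 167 were listed at a TPM of 0 in both libraries and 68 had at least 1 TPM in both. Summed, the copies had 4049 TPM in replicate 1 and 4030 TPM in replicate 2, which equals 12.2% and 14.0% of the members' own sum. Of these sums, 1558 and 1464 TPM came from a single copy, Gm10443, through its very short effective length of 11.7 and 8.54 bases.

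The signal of copies fell on a few members. In 4 members, Rpl27, Rpl5, Rpl14 and Rps13, copies held more expected counts than the gene itself. Rpl27 alone had 27.9 TPM in replicate 1 and 23.4 TPM in replicate 2, and with its copies 299.8 and 220.4 TPM, of which Rpl27-ps3 gave 271 and 195 TPM. Rpl5 with its copies, led by Gm15500, had 123 and 121 TPM. Rpl14 with Rpl14-ps1 had 185 and 154 TPM. Rps13, with 266 and 166 TPM alone, had 647 and 468 TPM with copies, chiefly Rps13-ps1. With the copies of every member added, the members' mean TPM had a median of 263.6 and a lower quartile of 150.01. Summed with their copies, Rpl27 (260.1 TPM on average) lay near that median, Rpl14 (169.5) between the quartile and the median, and Rpl5 (121.9) below the quartile. The copies of Rpl27 and Rpl5 just named are identical to them over the whole coding sequence. Reads from such a gene and its copy could be told apart only outside the coding sequence, and which of them was transcribed was not tested. Read assignment was also less certain in these genes: the posterior SD was over 1% of the count in both libraries for 10 members, among them Rpl5 (6.39% and 5.40%), Rpl27 (4.35% and 5.54%) and Rpl14 (4.05% and 4.86%), against 5.36% of all protein-coding genes with at least 10 counts in both.

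A high TPM of a copy could also rest on a short length. Gm10443, whose 210 bases are identical to the coding sequence of Rps28, had 1558 TPM in replicate 1 and 1464 TPM in replicate 2, above Rps28 itself at 747 and 621 TPM. Its effective length was 11.7 and 8.54 bases, and it held 737 and 527 counts, while Rps28 held 5714 and 4633. Copies thus made up 69.0% of the summed TPM for Rps28 but 11.0% of the summed counts.

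**Figure D3:**
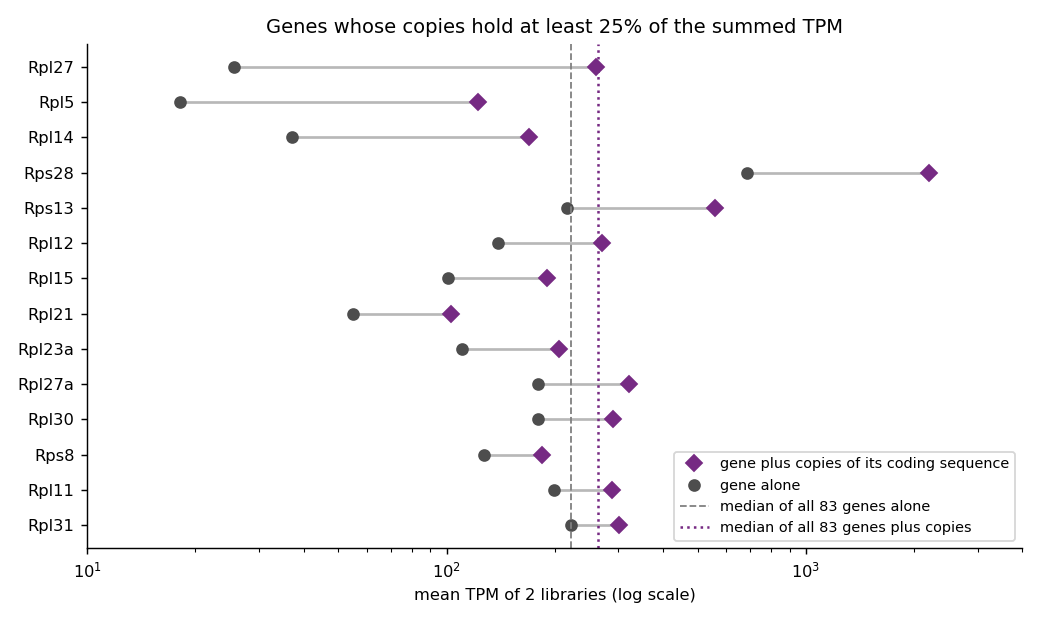
Mean TPM of 2 libraries, on a log axis, for the 14 members whose copies hold at least 25% of the summed TPM. Grey circles are the gene alone, purple diamonds the gene plus its copies, the dashed line is the median of all 83 genes alone and the dotted line their median with copies. With copies, Rpl27 lies near the dotted line at 260.1 TPM, and Rpl14 and Rpl5 lie below both lines; the value for Rps28 rests on a copy of 11.7 and 8.54 effective bases.

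Ribosomal protein mRNAs were slightly lower in replicate 2, and most members shared this direction. After TMM scaling of expected counts, 72 of the 82 members with at least 10 counts in both libraries were lower in replicate 2, against 50.0% of protein-coding genes. The median log2 ratio of replicate 2 over replicate 1 was -0.26 over members (quartiles -0.40 and -0.11) and -0.00 over all 16355 protein-coding genes. For protein-coding genes with a mean of at least 100 TPM it was -0.05, and for members of that level -0.27. At that level, 62.1% of protein-coding genes and 89.6% of members were lower in replicate 2. Both subunits took part, with medians of -0.28 in the large and -0.26 in the small subunit.

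Past 1.5-fold, 4 members were lower in replicate 2, against 6.51% of protein-coding genes, and none was higher, against 4.1%. Taken as a share of 82 genes, 4 is near that background. They were Rps27 at -0.87 on the log2 scale (-1.24 to -0.50, the 95% counting interval), the X-linked Rpl10 at -0.77 (-0.86 to -0.68), Rps13 at -0.71 (-0.79 to -0.64) and the X-linked Rps4x at -0.61 (-0.74 to -0.47). These intervals leave out the uncertainty of read assignment. Rps27rt, which shares the coding sequence of Rps27 and held far more counts, was at 0.06 (-0.02 to 0.15). Copies held 58.4% of the counts summed over Rps13 and its copies, and Rps13-ps1 was at -0.37 (-0.43 to -0.31). The Rps27 and Rps13 values thus depend on how reads were divided. All 4 X-linked members were lower in replicate 2, but so were 87.8% of the 82 members, so the direction does not set them apart. Rpl39 was at -0.41 (-0.67 to -0.15), and Rpl36a at -0.20 with an interval of -0.45 to 0.05 that includes 0. X-linked protein-coding genes as a whole had a median of 0.26 and were higher. The 7 paralogs with enough counts had a median of -0.00, and 4 of them were lower. On these counts Rps24, a small subunit gene, had the highest ratio, at 0.25 (0.21 to 0.29). On the ratio of TPM, 3 members were lower past 1.5-fold (6.89% of protein-coding genes) and 1 was higher (5.32%). There Rps20 had the highest ratio, at 0.67, and Rps4x, at -0.58, was no longer past 1.5-fold.

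The same libraries differed in cell markers. All 5 peritubular markers were lower in replicate 2, with a median log2 ratio of -1.43, and of the 7 epididymis markers Crisp1, Spink8 and Defb28 had 454, 194 and 96.0 TPM in replicate 1 and 0.20, 0.25 and 0 TPM in replicate 2. The epididymis markers Adam7, Lcn5 and Lcn8, at 6.87, 0.11 and 0.06 TPM in replicate 1, were also at 0 in replicate 2. The seventh, Rnase10, had 2.42 TPM in replicate 1 and 3.23 TPM in replicate 2. All 6 Sertoli markers were higher in replicate 2, with a median of 0.34. The part of these cells in the ribosomal protein difference was not tested.

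**Figure D4:**
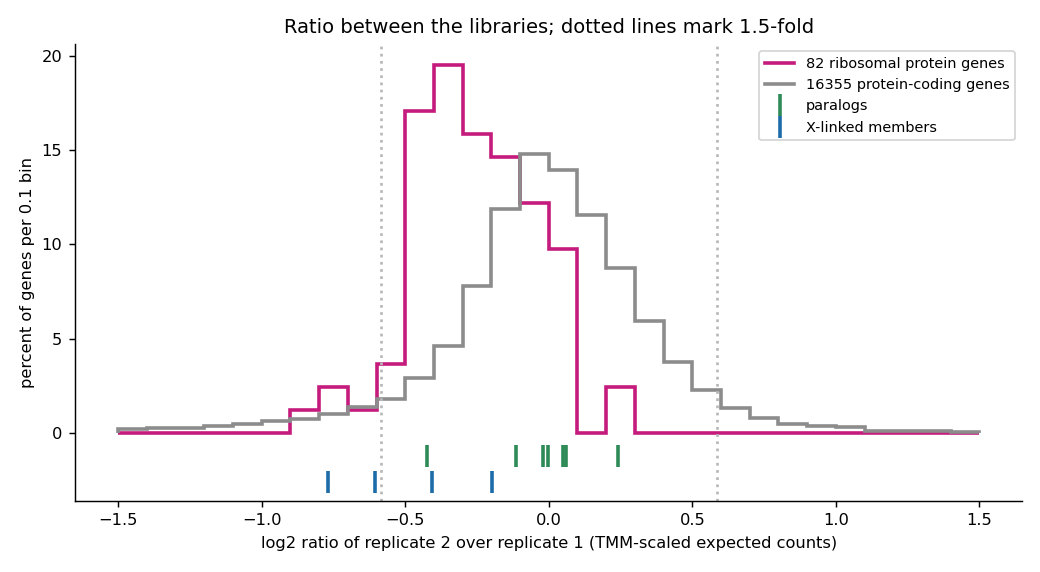
Percent of genes per bin of 0.1 in the log2 ratio of replicate 2 over replicate 1, for 82 ribosomal protein genes (pink) and 16355 protein-coding genes (grey). Ticks under the curves mark the paralogs (green) and X-linked members (blue), and dotted lines mark 1.5-fold. The pink curve is shifted to the left of the grey one, 3 of the 4 X-linked members lie in its left part, and most paralogs lie near 0.

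The leading transcript held most of the TPM in most members. Of the 83 members, 22 have 1 annotated transcript and so a share of 100% by construction. Over all members, the leading transcript held 95.5% of the gene's TPM in replicate 1 and 97.04% in replicate 2 at the median, and 53 members gave it 90% or more. Over the 61 members with several annotated transcripts the medians were 90.9% and 90.05%, and 31 gave it 90% or more. In 13 of the 83 members it held under 60%, against 28.1% of detected protein-coding genes. Transcripts typed as protein coding held 94.4% of the members' TPM in replicate 1 and 93.3% in replicate 2, and retained-intron transcripts 1.81% and 2.29%.

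Among members with no dominant transcript, Rpl15 and Rps10 divided their TPM over protein-coding isoforms, with leading shares of 36.2% and 37.9%. Rpl41 divided over 2 isoforms of 48.8% and 44.8%. Rpl10, the X-linked parent of Rpl10l, had isoforms of 42.0% and 41.1%. Rpl12 had 32.2% of its TPM in replicate 1 and 50.01% in replicate 2 in a transcript typed for nonsense-mediated decay, the pathway that degrades mRNA with a premature stop. In Rpl5 the leading transcript was a retained-intron form with 42.4%, and copies held 86.5% of the counts summed over Rpl5 and its copies.

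Rps20 showed how isoform assignment can turn a ratio. Its expected count was 16996 in replicate 1 and 14334 in replicate 2 (-0.32 on the log2 scale after scaling), yet its TPM was 167 and 267. Its longest protein-coding transcript, of 3706 bases, held 68.8% of its TPM in replicate 1 and 29.5% in replicate 2, and 2 shorter retained-intron forms held the rest. The effective length of the gene was thereby 2516 bases in replicate 1 and 1274 bases in replicate 2, so the direction between libraries depends on which value is read. In Rps6, a target of growth signalling by phosphorylation, the leading form was a processed transcript with 65.8%. In Rpl13a the leading form, with 82.9%, is not in GENCODE M21.

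**Figure D5:**
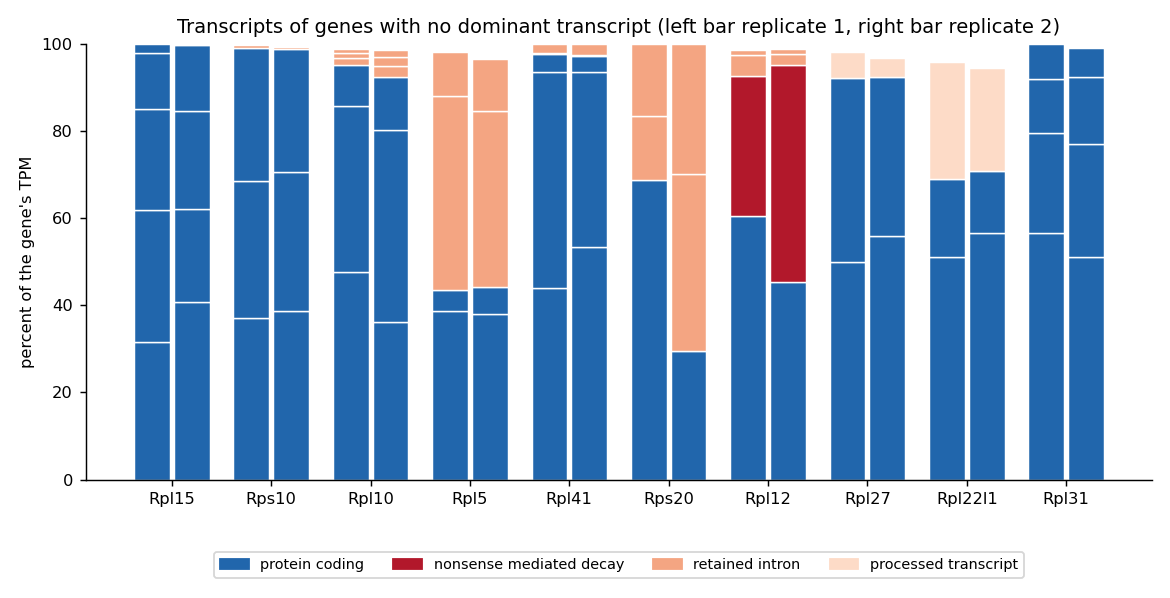
Percent of each gene's TPM in its transcripts, for the 10 members with the lowest share in the leading transcript; left bars are replicate 1 and right bars replicate 2, each block is 1 transcript and colours give the annotated type. Transcripts under 1 TPM are not drawn, so bars may end below 100%. In Rps20 the protein-coding block is 68.8% in replicate 1 and 29.5% in replicate 2.

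Other parts of the translation machinery gave a scale for these levels. All 5 ribosomal protein genes that carry other names were detected, at a median of 187 TPM. Among them, Fau, a ubiquitin-like fusion gene of the small subunit, had 692 TPM in replicate 1 and 535 TPM in replicate 2, and Rps27a, a ubiquitin fusion gene, was lowest with 78.8 and 82.3 TPM. Of 10 genes listed as elongation factors 9 were detected, with a median of 233 TPM. That list also holds Eef2k, a kinase, at a mean of 10.7 TPM, and Eef1e1 at 6.6 TPM. Its median is therefore not that of elongation factors in the strict sense. Eef1a1, which delivers aminoacyl-tRNA, had 1792 and 1835 TPM. Its neuronal and muscle paralog Eef1a2 had 0.07 and 0.06 TPM. All 26 ribosome biogenesis genes were detected, at a lower median of 14.3 TPM, from 2.29 TPM for the X-linked Dkc1 to 100.5 TPM for Nop10. All 77 mitochondrial ribosomal protein genes were detected at a median of 25.6 TPM. Between libraries, the mitochondrial ribosomal proteins had a median log2 ratio of -0.10, with 54 of 77 lower in replicate 2, and the biogenesis genes one of 0.03, with 10 of 26 lower, where the cytosolic members had -0.26.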

How the data were processed

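Poly(A) RNA of mouse testis was measured in 2 libraries of 1 group. Per the file headers and readme, the authors deposited expected counts (estimated, not normalised), TPM and posterior means of both per gene and transcript on mm10 with annotation M4. They also deposited the posterior SD of the count. For the aligner and the quantifier, no name is given in the sources used here. An expected count divides ambiguous reads between genes.

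Symbols, types and coding sequences came from GENCODE M21 (GRCm38) by unversioned identifier, with 884 genes unmatched. Log2 ratios between libraries used rounded expected counts with TMM scaling (edgeR 4.0.16, R 4.3.3) where both libraries had at least 10 counts, and exact binomial 95% intervals. The scaling was tested on simulated data. Copies were found with blastn (BLAST+ 2.17.0). Tables were joined in Python 3.11.15. Alternatives were DESeq2 1.42.0 size factors, posterior means, other thresholds and leaving out a library.

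The genes named are the paralog pairs, the 10 highest and lowest members, X-linked members, those past 1.5-fold between libraries and those with no dominant (under 60%) or no protein-coding leading transcript. Members and lists were chosen with earlier results of these data known. Copies were named after their values were seen. Some genes of these lists are not reported here by name. Splice junctions and contigs on another assembly were not used here.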

Additional observations from a re-analysis of the deposited data

How the results depend on the processing

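Among the summaries and pairs, under the alternatives run, only the ratio of Rps27l to Rps27, at a log2 value of -0.07, changed direction: it was 2.48 on expected counts, in total or per base of coding sequence, and ranged from -0.56 to 0.42 when a library was left out. On expected counts, where the 2 values differ they are given as total and per coding base: the log2 ratio was 1.91 for Rpl10l, -0.69 and -0.62 for Rpl22l1, 2.86 for Rpl36al, 4.74 for Rpl39l, -1.94 and -1.81 for Rpl7l1 and 4.10 for Rps27rt. TPM depends on the effective length, which these drop. Adding copies or named pseudogenes to the parent moved no ratio by more than its SD. Rescaled to nuclear protein-coding genes, the median level was 265 TPM and the members' share 3.67%, and on expected counts that share was 1.11%. With copies the median level, as a mean of the 2 library medians, was 272 TPM. The 263.6 TPM given above is the median of the members' mean TPM with copies. The large to small subunit log2 ratio was -0.43 without the paralogs and -0.40 with copies. The leading transcript share was 94.6% on posterior means. The number of members detected was 82 or 83 under every threshold tried, and 4 or 5 were past 1.5-fold, with 3 lower and 1 higher on the ratio of TPM. Leaving out a library gave median levels of 211 to 238 TPM. No paired analysis was possible because there was 1 group. Low counts limit chiefly Rpl3l and Rps27. For Rps27 they also rest on its short listed length and on the coding sequence shared with Rps27rt, not on depth alone. The floor set for a gene with no count, 3 counts, is 6.1e-06% of gene counts in replicate 1.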

Other observations

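Among copies of members' coding sequences, some differed in level between the libraries. These were chosen after their values were seen. Of 75 copies with at least 10 counts in both libraries, 17 were past 1.5-fold between them (22.7%, against 10.6% of protein-coding genes), 7 lower and 10 higher in replicate 2, with a median log2 ratio of 0.01. Of 22 copies with a mean of at least 20 TPM, 6 were past it. The share of protein-coding genes is not matched to the copies in level. It depends on level: of 1665 protein-coding genes with a mean of at least 100 TPM, 38 were past 1.5-fold. Gm12191, a processed pseudogene with 99.7% identity to Rpl30, had 6.79 TPM in replicate 1 and 194.7 TPM in replicate 2. Its count was 40.1 in replicate 1 with a posterior SD of 45.3% of it, and 1160 in replicate 2 with one of 3.48%. Gm6472, an X-linked copy of Rps7, had 3.71 TPM in replicate 1 and 55.2 TPM in replicate 2, with a posterior SD of 10.2% and 2.25% of the count. In the other direction, Gm8730 and Gm9625, both copies of the stalk gene Rplp0, had 232 and 114 TPM in replicate 1 and 103 and 48.0 TPM in replicate 2, while Rplp0 itself had 1272 and 1299 TPM. The counts of Gm8730 had a posterior SD of 0.255% and 0.380%. The part of read assignment in these differences was not tested.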
